A study of Homo sapiens with 15 samples.

Results

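The 9 genes that make or clear the DNA building blocks, RRM1, RRM2, RRM2B, TYMS, DUT, DTYMK, TK1, DCK and SAMHD1, were followed in LNCaP prostate cancer cells with and without enzalutamide. The members were chosen by symbol for their role in deoxynucleotide metabolism. The rule names no measured value, but the choice was made with earlier results of these data known. All 9 had a row among the 17272 genes of the expression table. LNCaP is an established human prostate cancer line whose growth depends on androgen. Enzalutamide, an antiandrogen used against prostate cancer, opposes the action of androgen on these cells. The cells were starved of androgen for 2 days in medium with charcoal-stripped serum. All were then given the synthetic androgen R1881 at 1 nM, either with the solvent DMSO (10 libraries, called R1881 here) or with 2 µM enzalutamide (5 libraries), and were harvested at 22 h. The groups therefore differed in enzalutamide on top of androgen, and no library without R1881 was analysed here. The cells are of 1 line, so the values describe LNCaP cells in culture.

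DNA replication needs a balanced supply of the deoxynucleoside triphosphates. Ribonucleotide reductase, a complex of the large subunit RRM1 with a small subunit, RRM2 or RRM2B, makes deoxynucleotides from ribonucleotides. Thymidylate is made separately by TYMS from a precursor that DUT supplies, and thymidine and deoxycytidine are also salvaged by the kinases TK1 and DCK. SAMHD1 works in the opposite direction and breaks deoxynucleoside triphosphates down. In dividing cells RRM2, TYMS and TK1 are known to be made mainly around S phase, whereas RRM2B is a p53 target that serves resting and damaged cells.

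Polyadenylated RNA was sequenced to between 15830745 and 24316740 reads on genes in the R1881 libraries and between 21188661 and 25416052 in the enzalutamide libraries. Levels are given as deposited, in CPM (reads per 1000000 reads of the library, as rescaled by the authors), and every member had at least 260 reads in each library. The treatment was seen in the known androgen targets, with log2 fold changes of -3.55 for KLK3, -4.87 for KLK2, -3.56 for TMPRSS2 and -4.99 for FKBP5. The LNCaP markers KLK3, HOXB13 and FOLH1 were present in all libraries. Of 6 markers of immune, stromal and endothelial cells, PTPRC, CD3E, COL1A2 and PECAM1 had no row, while COL1A1 (mean 6.03 CPM with R1881 and 9.96 with enzalutamide) and VWF (2.56 and 3.20 CPM) were low. Their summed level was 7.06 to 10.8 CPM with R1881 and 10.3 to 15.6 CPM with enzalutamide, and their part in the results was not tested. Libraries of 1 group were separate samples in the labels, and p-values measure only the spread between these samples.

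With enzalutamide, 8 of the 9 genes were lower and 1, SAMHD1, was higher at an adjusted p under 0.05 (limma over 17046 genes, Benjamini-Hochberg). Over all genes tested 32.7% were called lower and 29.8% higher. The median log2 fold change of the members was -0.57, beside -0.01 for all genes tested. In 6 members every enzalutamide library lay below every R1881 library, which held for 20.1% of all genes, and in SAMHD1 every enzalutamide library lay above, which held for 17.1%. RRM2 changed most, with a mean 3.27-fold lower, followed by TYMS and TK1 at 1.94-fold lower each. With library totals set to 1000000 in place of the deposited scaling, the split over all genes moved from 5577 lower and 5083 higher to 4288 lower and 6629 higher, the median of all genes moved to 0.07, and 7 members were called lower and 1 higher.

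**Figure D1:**
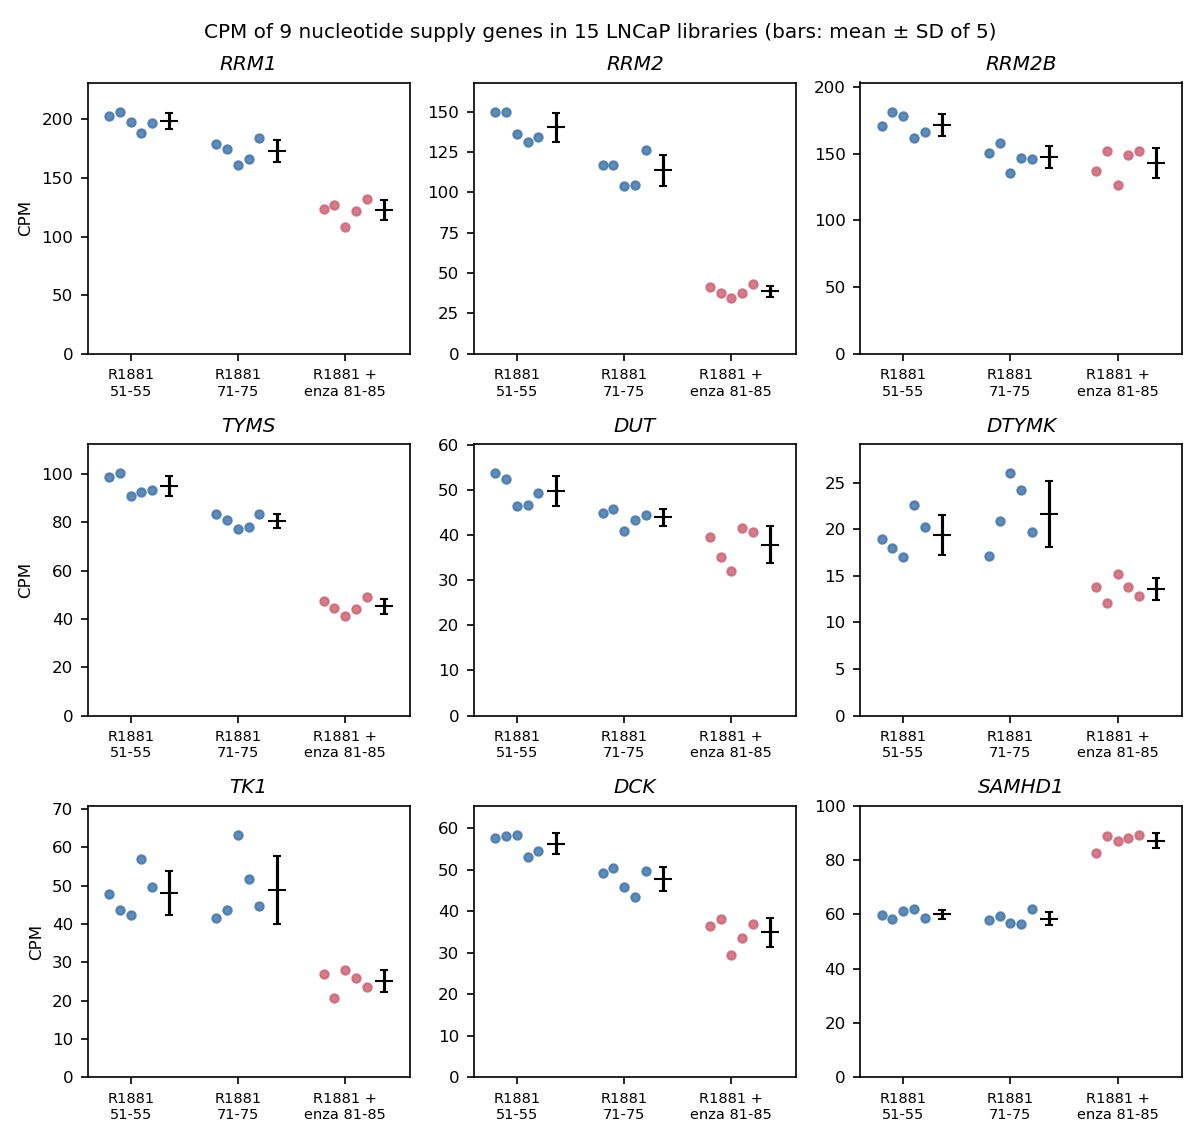
CPM (vertical axis, from 0) of each member in every library, with R1881 libraries in blue, split by the library numbers 51 to 55 and 71 to 75, and R1881 + enzalutamide libraries in red; black bars are the mean ± SD of 5 libraries. RRM2 fell from between 104 and 150.03 CPM to between 34.4 and 43.0 CPM, SAMHD1 rose from at most 62.1 to at least 82.7 CPM, and the ranges of RRM2B and DUT overlapped.

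The promoters of the members show which of these genes carry letters that are known from cell cycle genes. The 8 sites shown were chosen with the changes known, from members that moved in opposite directions or by different amounts. Windows of 250 bases before to 50 bases after the gene start were taken from RefSeq (GRCh38.p14), and 8 of the 9 members had a window, 13 windows in all. A CCAAT box (letters CCAAT, either strand) was present in windows of 5 members, RRM1, RRM2, DTYMK, TK1 and SAMHD1, in 39.7% of the 27305 genes with a window and in 34.6% of all 35116 windows. An E2F motif (TTTCCCGC, TTTGGCGC, TTTGCCGC or TTTCGCGC, either strand) was present in windows of 3 members, TYMS, DUT and DCK, in 3.99% of these genes and in 3.31% of all windows. Only these exact letters were searched, so E2F sites with other letters were not counted in any member. In the sites printed here, 5′ to 3′ on the strand of the gene, capitals mark these letters, with ATTGG the CCAAT box and GCGGGAAA the E2F letters read on the opposite strand. RRM2 held 3 CCAAT boxes close together, each followed by the letters gggaaggg, and positions are counted from the gene start of the window.
RRM2, chr2:10122604-10122633, plus strand, -135 to -106: ggcaaggcgcagCCAATgggaagggtcgga
RRM2, chr2:10122634-10122663, plus strand, -105 to -76: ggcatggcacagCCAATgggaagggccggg
RRM2, chr2:10122661-10122690, plus strand, -78 to -49: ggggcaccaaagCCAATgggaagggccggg
TK1, chr17:78187112-78187141, minus strand, -89 to -60: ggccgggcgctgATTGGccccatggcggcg
TK1, chr17:78187081-78187110, minus strand, -58 to -29: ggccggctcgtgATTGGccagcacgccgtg
SAMHD1, chr20:36951735-36951764, minus strand, -56 to -27: caggaggCCAATaggctgCCAATactcctt
TYMS, chr18:657603-657632, plus strand, -50 to -21: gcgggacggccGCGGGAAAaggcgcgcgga
DUT, chr15:48332152-48332181, plus strand, -45 to -16: ctgGCGGGAAAtttcggtTTTGGCGCgctc

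RRM2, TK1 and SAMHD1 share the CCAAT letters, and TYMS and DUT share the E2F letters. Whether these letters had a part in the changes with enzalutamide was not tested. A CHR element (TTTGAA or TTTAAA, either strand) was present in windows of 4 members, in 27.9% of genes and in 24% of all windows. A GC box (GGGCGG) was present in 6 members, 48.3% of genes and 45% of windows. The letters TATAAA were present in 1 member, 14% of genes and 11.5% of windows. This match lay in a window of TK1 at -132 to -127, read on the opposite strand. A match describes the letters in these windows and not the binding of a factor.

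Of the ribonucleotide reductase subunits, the S phase small subunit RRM2 fell most, the large subunit RRM1 fell less, and the alternative small subunit RRM2B fell least. RRM2 (chr2:10120698-10211725, plus strand, GENCODE v44 on GRCh38) lay between 104 and 150.03 CPM in the 10 R1881 libraries, with a median of 129 CPM. In the 5 enzalutamide libraries, replicates 1 to 5, it measured 37.5, 34.4, 41.1, 43.0 and 37.9 CPM. The groups were far apart, with every enzalutamide library well below the lowest R1881 library. The log2 fold change of RRM2 was -1.69 (SE 0.080, limma adjusted p = 1.09e-13), and its median CPM decreased by 70.5%. Of 3 annotated RRM2 pseudogenes 1, RRM2P3, had a row in the table, at a mean of 3.90 CPM with R1881 and 1.23 CPM with enzalutamide, few reads beside those of RRM2.

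RRM1 (chr11:4094707-4138932, plus strand), which holds the catalytic site and the sites that sense nucleotide levels, ranged from 161 to 207 CPM with R1881, with a median of 186 CPM. With enzalutamide it measured 127, 108, 123, 132 and 122 CPM, and all 5 libraries were below the lowest R1881 library. RRM1 thus had a log2 fold change of -0.60 (SE 0.057, limma adjusted p = 1.07e-08), a mean 1.52-fold lower. RRM1-AS1 shares 63 exon bases with RRM1 on the opposite strand and had no row.

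RRM2B, the small subunit that p53 induces, ranged from 135 to 181 CPM with R1881, with a median of 159.8 CPM. With enzalutamide it measured 152, 126, 137, 152 and 149 CPM, so that the groups overlapped and only 1 enzalutamide library, replicate 2, was below every R1881 library. Its log2 fold change was -0.15 (SE 0.062, limma adjusted p = 0.0395). This call depended on the setting. It was lost without any single one of R1881 replicates 1, 4, 7, 8, 9 or 10 or enzalutamide replicates 2 or 3, with log2 fold changes from -0.15 to -0.11 and adjusted p from 0.0501 to 0.144, and it was also lost with library totals set to 1000000 (-0.06, adjusted p = 0.402) and on recovered reads in edgeR (-0.11, adjusted p = 0.109) and DESeq2 (-0.14, adjusted p = 0.0543). After removal of the GC trend the value was larger (-0.23, adjusted p = 4.66e-07).

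The unequal change of the subunits was tested as a ratio within each library, which does not depend on how that library was scaled. The ratio of RRM2 to RRM2B in CPM ranged from 0.712 to 0.878 with R1881 and from 0.247 to 0.300 with enzalutamide, a 2.93-fold lower ratio (log2 difference -1.55). The ratio of RRM2 to RRM1 ranged from 0.628 to 0.738 with R1881 and from 0.295 to 0.333 with enzalutamide, a 2.15-fold lower ratio (log2 difference -1.10). Neither ratio overlapped between the groups. For each of them the two-sided exact permutation test gave p = 0.000333, the smallest that the 3003 regroupings of these libraries allow, and 0.000555 after adjustment over the 5 ratios computed. Per kb of transcript, the median ratio of RRM2 to RRM2B RNA was 1.16 with R1881 and 0.399 with enzalutamide, so that on this scale RRM2 was the more abundant small subunit transcript in the median R1881 library and RRM2B in the median enzalutamide library. The R1881 order rests on the lengths of 1 canonical transcript per gene, 3258 bases for RRM2 and 4774 for RRM2B. Transcript lengths in these cells were not measured, and in CPM RRM2B was higher in every library.

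**Figure D2:**
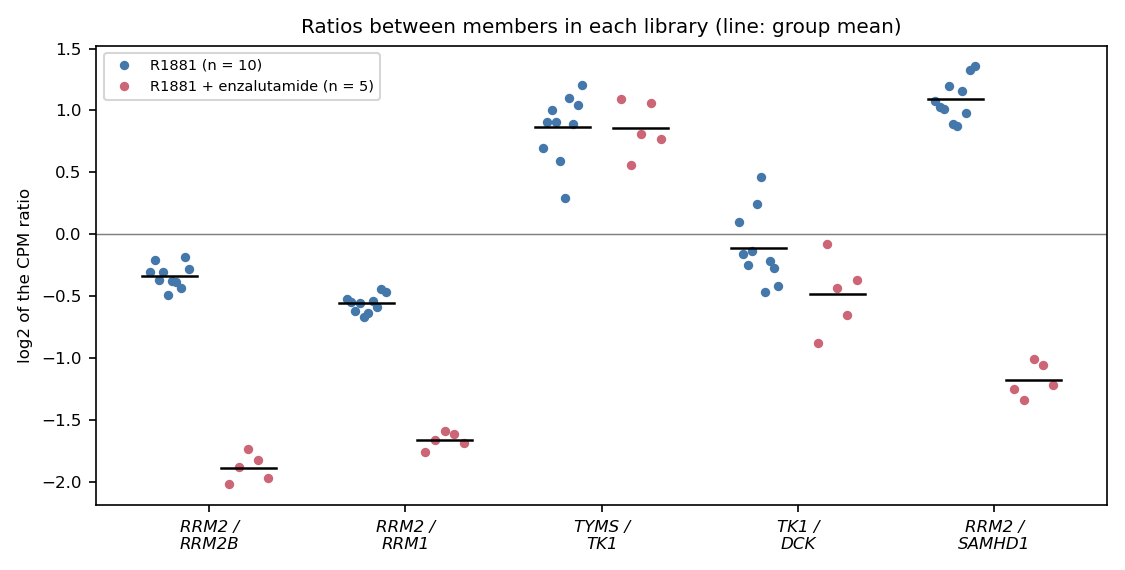
log2 of the CPM ratio (vertical axis) of 5 pairs of members in each library, with R1881 in blue (n = 10), R1881 + enzalutamide in red (n = 5) and the group mean as a line. The ratios of RRM2 to RRM2B, RRM1 and SAMHD1 separated the groups by -1.55, -1.10 and -2.26 on the log2 scale, while TYMS to TK1 and TK1 to DCK overlapped.

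In the thymidylate branch, TYMS fell clearly, DTYMK fell less and DUT fell least. TYMS (chr18:657653-673578, plus strand), the enzyme that methylates dUMP to dTMP, ranged from 77.4 to 100.4 CPM with R1881, with a median of 87.2 CPM. The enzalutamide libraries measured 44.4, 41.2, 47.4, 49.2 and 44.2 CPM, and no library reached the R1881 range. TYMS had a log2 fold change of -0.95 (SE 0.062, limma adjusted p = 2.46e-11). ENOSF1, which lies on the opposite strand and shares 967 exon bases with TYMS, changed in the other direction, from a mean of 29.2 to 40.5 CPM (log2 fold change 0.47, adjusted p = 1.32e-08). The paper names a stranded library kit, but whether the strand was used in counting is not stated. How reads over these bases were assigned is therefore not known, and the level of TYMS is uncertain to that extent. TYMSOS shares a further 106 exon bases with TYMS, also on the opposite strand, and 2 annotated TYMS pseudogenes had no row.

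DUT (chr15:48331011-48343373, plus strand), which hydrolyses dUTP and thereby keeps uracil out of DNA, ranged from 41.1 to 53.8 CPM with R1881, with a median of 46.1 CPM. With enzalutamide it measured 35.2, 32.0, 39.7, 40.7 and 41.7 CPM, and 1 library, replicate 5, lay inside the R1881 range. Its log2 fold change was -0.31 (SE 0.066, limma adjusted p = 0.000409). DUT has 8 annotated pseudogenes, none with a row in the table, so its level is uncertain to the extent that their reads were assigned to it. The same holds for DUT-AS1, which shares 367 exon bases with DUT on the opposite strand and had no row.

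DTYMK (chr2:241675747-241686944, minus strand), the kinase that takes dTMP on towards dTTP from both the TYMS and the TK1 routes, ranged from 17.0 to 26.0 CPM with R1881, with a median of 20.02 CPM. The enzalutamide libraries measured 12.1, 15.2, 13.8, 12.8 and 13.8 CPM, all below the R1881 range. DTYMK had a log2 fold change of -0.57 (SE 0.089, limma adjusted p = 1.1e-05).

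Both salvage kinases fell, TK1 more than DCK. TK1 (chr17:78174091-78187233, minus strand), the cytosolic thymidine kinase, ranged from 41.5 to 63.2 CPM with R1881, with a median of 46.3 CPM. Replicates 1 to 5 of the enzalutamide group measured 20.8, 28.0, 27.0, 23.6 and 26.0 CPM, and the highest of these was below the lowest R1881 library. The log2 fold change was -0.94 (SE 0.089, limma adjusted p = 1.08e-08). DCK (chr4:70992538-71030914, plus strand), which phosphorylates deoxycytidine and activates nucleoside drugs such as cytarabine, ranged from 43.5 to 58.5 CPM with R1881, with a median of 51.8 CPM. With enzalutamide it measured 38.1, 29.4, 36.5, 37.0 and 33.5 CPM, again without overlap, and the log2 fold change was -0.57 (SE 0.071, limma adjusted p = 5.57e-07). MOB1B shares 199 exon bases with DCK on the same strand and had a log2 fold change of -0.20 (adjusted p = 0.00466).

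Between the synthesis and salvage routes to thymidylate no unequal change was detected, with a log2 difference of -0.01 in the ratio of TYMS to TK1 (two-sided exact permutation p = 0.965, adjusted p = 0.965). The SD of this log2 ratio was 0.27 with R1881 and 0.22 with enzalutamide, so that small unequal changes could not be seen. The ratio of TK1 to DCK was lower with enzalutamide by -0.37 on the log2 scale (exact permutation p = 0.0393, adjusted p = 0.0491), but the groups overlapped, at 0.724 to 1.38 with R1881 and 0.545 to 0.949 with enzalutamide. It no longer passed without any single one of R1881 replicates 1, 4, 5 or 6 or enzalutamide replicates 1, 3 or 4 (log2 differences from -0.38 to -0.27), nor against R1881 libraries 51 to 55 alone (-0.25, exact permutation p = 0.19). These fits were judged by the unadjusted p, a looser threshold than the adjusted one. After removal of the GC trend it was -0.26 (exact permutation p = 0.000333).

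SAMHD1 (chr20:36890229-36951893, minus strand), the triphosphohydrolase that empties the deoxynucleotide pool and restricts retroviruses in resting cells, was the member that rose. It ranged from 56.3 to 62.1 CPM with R1881, with a median of 58.9 CPM, and measured 89.0, 87.0, 82.7, 89.3 and 88.0 CPM with enzalutamide. The log2 fold change was 0.55 (SE 0.034, limma adjusted p = 1e-11), and its SE was the smallest of the 9 members. TLDC2 shares 205 exon bases with SAMHD1 on the opposite strand and had no row. The ratio of RRM2 to SAMHD1, a maker and a remover of deoxynucleotides, ranged from 1.83 to 2.56 with R1881 and from 0.395 to 0.497 with enzalutamide. This 4.79-fold lower ratio (log2 difference -2.26, exact permutation p = 0.000333, adjusted p = 0.000555) was the largest shift among the 5 ratios. It sets the member that fell most against the only one that rose, both without overlap. The groups therefore had to separate in this ratio, and its p-value adds nothing to the 2 single changes.

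**Figure D3:**
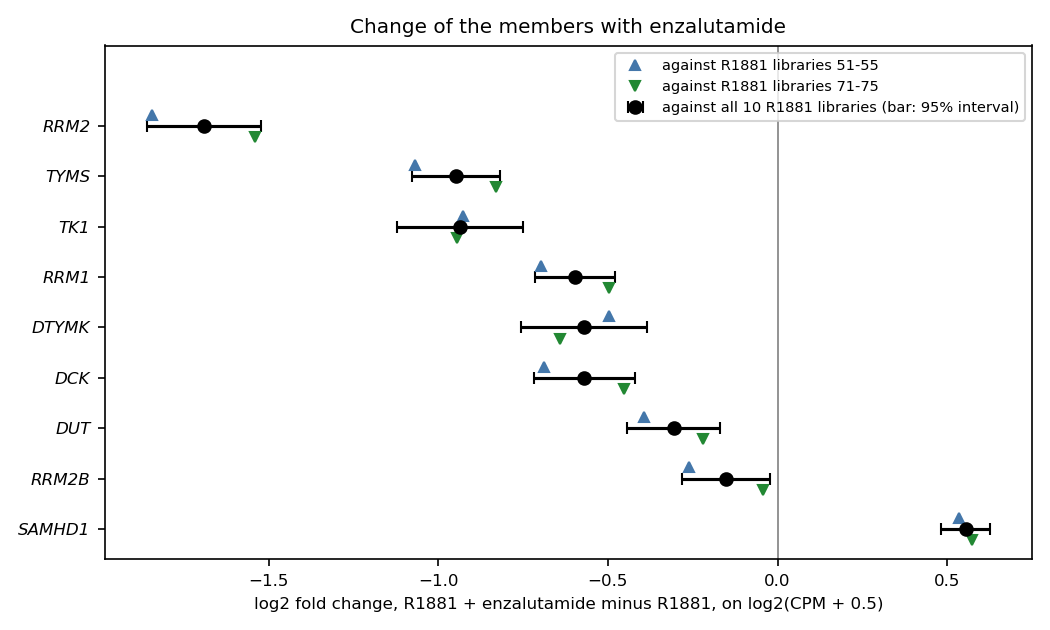
log2 fold change of each member (horizontal axis, R1881 + enzalutamide minus R1881, on log2(CPM + 0.5)) against all 10 R1881 libraries (black, 95% interval of the limma fit) and against each series of 5 R1881 libraries (triangles). RRM2 is lowest at -1.69, SAMHD1 is the only member above 0 at 0.55, and the interval of RRM2B runs from -0.28 to -0.02.

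Levels can be compared between genes only per length of transcript, and on that scale enzalutamide changed the order of the members. With R1881 the order in mean CPM per kb of the canonical transcript was RRM1 (59.2 ± 4.94, SD, n = 10), TYMS (54.5 ± 5.22), RRM2 (38.96 ± 5.05), TK1 (33.9 ± 4.94), RRM2B (33.4 ± 3.14), DUT (21.9 ± 1.86), DCK (20.8 ± 2.07), DTYMK (19.5 ± 2.86) and SAMHD1 (12.7 ± 0.439). The ranges over libraries of neighbours in this order overlapped except between TYMS and RRM2, RRM2B and DUT, and DTYMK and SAMHD1. With enzalutamide the order was RRM1 (39.02 ± 2.80, n = 5), RRM2B (29.99 ± 2.35), TYMS (28.1 ± 1.93), SAMHD1 (18.8 ± 0.571), DUT (17.7 ± 1.92), TK1 (17.5 ± 2.02), DCK (13.9 ± 1.399), DTYMK (12.9 ± 1.121) and RRM2 (11.9 ± 1.03). Here neighbours were separate only between RRM1 and RRM2B and between TYMS and SAMHD1. RRM2 moved from rank 3 to rank 9 and SAMHD1 from rank 9 to rank 4, although the ranges of all neighbours from SAMHD1 down to RRM2 overlapped with enzalutamide.

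**Figure D4:**
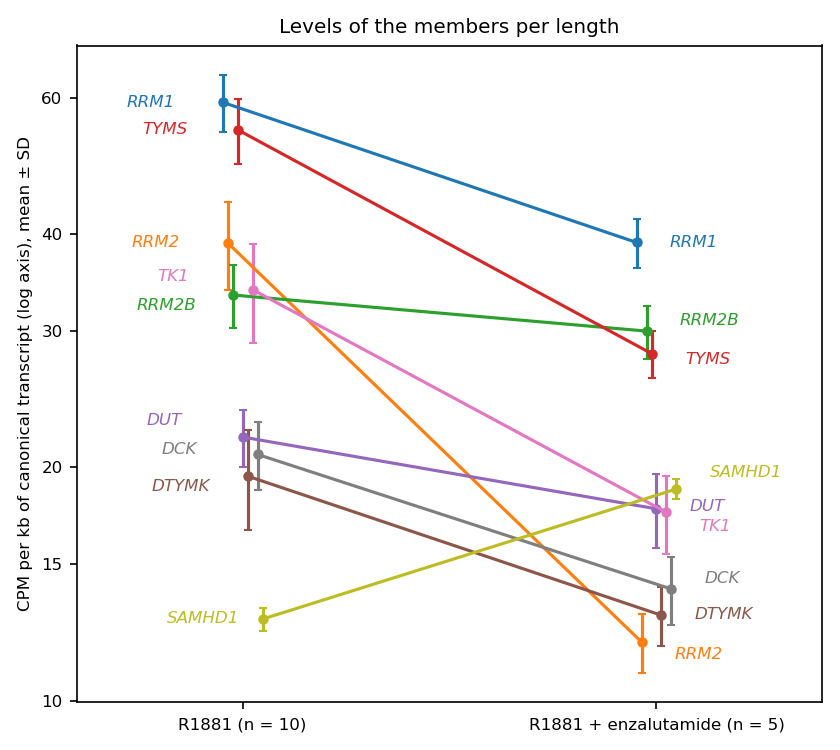
Mean CPM per kb of the canonical transcript (log axis) of the 9 members with R1881 (n = 10) and with R1881 + enzalutamide (n = 5); bars are the SD over libraries, and points are shifted sideways for legibility. The line of RRM2 crosses those of 6 other members on its way from 38.96 to 11.9, and SAMHD1 rises from 12.7 to 18.8.

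Genes of other lists of nucleotide metabolism were called too, beside a median log2 fold change of -0.57 for the members. Over all genes tested 32.7% were called lower and 29.8% higher, and the counts in the lists that follow stand beside these shares. All 5 genes of pyrimidine synthesis were lower (median log2 fold change -0.51; 4 with library totals set to 1000000 and in edgeR), among them DHODH, the mitochondrial step of the pathway (-0.73, adjusted p = 5.33e-11), and CTPS1, which makes CTP (-0.67, adjusted p = 4.48e-12). Of 9 genes of the folate cycle, which feeds TYMS, 8 were lower and 1 passed in neither direction (median -0.41), with the lowest values in the mitochondrial enzyme MTHFD1L (-0.67) and the folate carrier SLC19A1 (-0.63). Of 4 genes of PRPP supply and base salvage 3 were lower (median -0.33), among them PRPS1 (-0.60) and HPRT1 (-0.38).

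Purine synthesis held genes in both directions, with 6 of 10 lower, 2 higher and a median of -0.17, beside 32.7% lower and 29.8% higher over all genes. IMPDH1, an isoform of the enzyme that commits IMP to guanine nucleotides, fell from between 62.6 and 95.5 CPM to between 23.2 and 29.8 CPM (-1.43, adjusted p = 1.81e-12), and GMPS, the next step, had a log2 fold change of -0.50 (adjusted p = 2.27e-08). The other isoform IMPDH2 rose (0.20, adjusted p = 8.97e-06), as did ATIC, which makes IMP (0.26, adjusted p = 1.59e-06). Both rises passed under every other setting run with all or part of the libraries, at 0.18 to 0.29 for IMPDH2 and 0.23 to 0.35 for ATIC.

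Of 10 further nucleotide kinases with a row (NME2 had none), 5 were lower, 2 higher and 3 neither (median -0.19). The shares over all genes were 32.7% lower and 29.8% higher. The uridine-cytidine kinases UCK2 (-0.60, adjusted p = 5.5e-12) and UCK1 (-0.46, adjusted p = 2.66e-06) were lower, whereas the mitochondrial kinases TK2 (0.12, adjusted p = 0.00881) and CMPK2 (0.80, adjusted p = 5.69e-06) were higher, the latter at a mean of 1.83 and 3.52 CPM. Of 12 genes of pool cleaning and breakdown with a row (CDA had none), 8 were lower, 2 higher and 2 neither (median -0.22). NUDT1, which clears oxidised nucleotides (-0.50), and the nucleotidase NT5C (-0.44) were the lowest, and adenosine deaminase ADA (0.31) and UPP1, a uridine phosphorylase at 1.33 CPM or less on average (0.34), were higher. The UPP1 call was lost against R1881 libraries 71 to 75 alone (0.27, adjusted p = 0.0586) and with the replicate number as a block (0.33, adjusted p = 0.0522). With library totals set to 1000000 only 5 of these 12 were lower. Of 3 nucleoside transporters SLC29A2 fell (-0.86, adjusted p = 7.51e-08) and SLC29A3 rose (0.29, adjusted p = 0.00194). SLC29A1 had a value of -0.14 (adjusted p = 0.0339) and was lost under TMM factors, library totals set to 1000000, edgeR and DESeq2, and without any single one of R1881 replicates 2 or 4 or enzalutamide replicates 1, 4 or 5 (-0.14 to -0.11), and against R1881 libraries 51 to 55 alone (-0.097, adjusted p = 0.196).

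**Figure D5:**
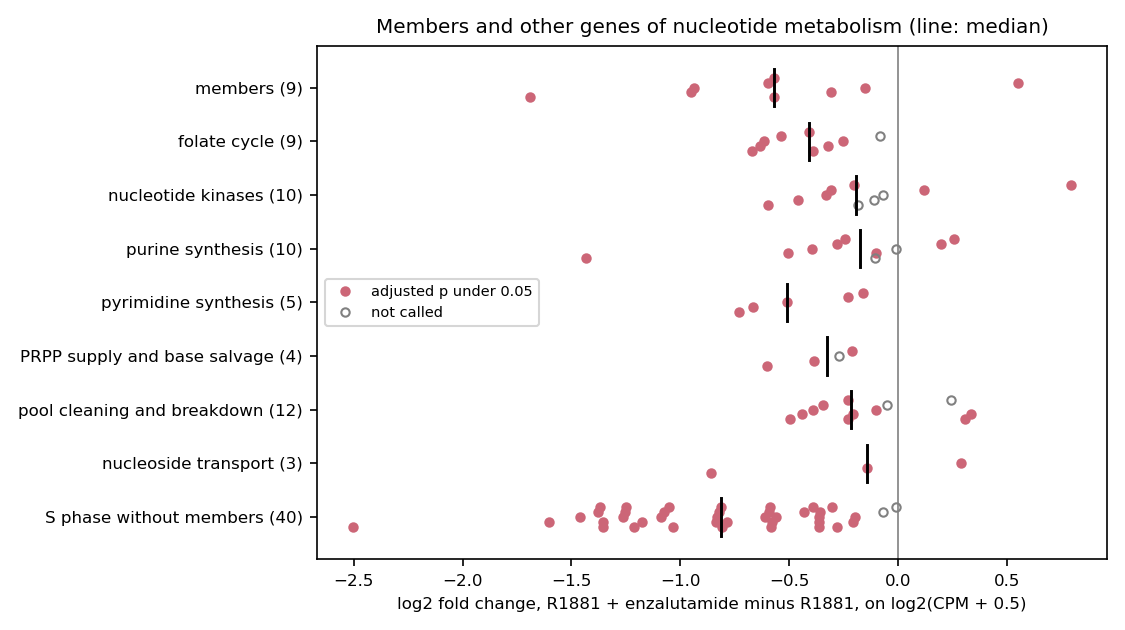
log2 fold change with enzalutamide (horizontal axis, on log2(CPM + 0.5)) of the members and of each other list, 1 point per gene, with the number of genes tested in brackets; red points passed an adjusted p of 0.05 in limma, open points did not, and black lines are medians. The medians run from -0.14 in nucleoside transport to -0.81 in the S phase list, with -0.57 for the members.

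Among 40 S phase genes of the list in Seurat, members left out, 38 were lower and 2 passed in neither direction (0 higher in limma, also at an unadjusted p under 0.05, in edgeR and in DESeq2), with a median log2 fold change of -0.81. Their summed level ranged from 2150 to 2530 CPM with R1881 and from 1169 to 1288 CPM with enzalutamide. Between the treatment groups RRM2, TYMS and TK1 thus fell along with S phase genes in general, and the part of cell cycle phase in this fall was not tested. Between the R1881 series described below, TK1 was not called (log2 difference 0.02, limma adjusted p = 0.937), while the list had a median of -0.14. The TK1 value depended on the GC trend described below, and was -0.12 (limma adjusted p = 0.161) with that trend removed. The list median is without that removal. In RNA of whole cultures, fewer cells in S phase and less RNA per cell in S phase cannot be told apart.

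The members also varied without the drug. In the labels the R1881 libraries carry numbers in 2 series, 51 to 55 and 71 to 75, of unstated meaning, and the enzalutamide libraries are numbered 81 to 85, so that such a series and the treatment cannot be told apart. Between the R1881 series, 2.35% of all genes were called lower and 0.821% higher in 71 to 75, and of the 9 members 5 were lower and 0 higher (limma; 0 higher also at an unadjusted p under 0.05 and in edgeR). The lower members were RRM2 (log2 difference -0.30, adjusted p = 0.0152), TYMS (-0.24, adjusted p = 0.0124), DCK (-0.24, adjusted p = 0.0265), RRM2B (-0.22, adjusted p = 0.0227) and RRM1 (-0.20, adjusted p = 0.0243). DUT (-0.18, adjusted p = 0.073), DTYMK (0.15, adjusted p = 0.386), TK1 (0.02, adjusted p = 0.937) and SAMHD1 (-0.04, adjusted p = 0.571) did not pass. The summed S phase list was 2411 to 2530 CPM in 51 to 55 and 2150 to 2307 CPM in 71 to 75, and 8 of its 40 genes were called lower. Calls, but not the size of the differences, depended on single libraries, with 1 member called without replicate 5, 2 without replicate 7, 0 without replicate 9 and 1 without replicate 10, and the number of all genes called, 541, ranged from 55 without replicate 9 to 964 without replicate 3. Over these fits the differences stayed at -0.34 to -0.27 for RRM2, -0.25 to -0.22 for TYMS, -0.26 to -0.20 for DCK, -0.25 to -0.19 for RRM2B and -0.22 to -0.17 for RRM1.

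The difference between the treatment groups was larger in size than that between the R1881 series for every member but RRM2B, which was not tested. For DUT the 95% intervals overlapped, at -0.44 to -0.17 between treatments and -0.29 to -0.07 between series. Set against libraries 51 to 55 and 71 to 75 in turn, which share the enzalutamide libraries, the log2 fold changes were -1.84 and -1.54 for RRM2, -1.07 and -0.83 for TYMS, -0.93 and -0.94 for TK1, -0.70 and -0.50 for RRM1, -0.69 and -0.45 for DCK, -0.50 and -0.64 for DTYMK, -0.39 and -0.22 for DUT and 0.53 and 0.57 for SAMHD1, each past an adjusted p of 0.05 in limma. RRM2B had -0.26 (adjusted p = 0.000186) against 51 to 55 and -0.04 (adjusted p = 0.541) against 71 to 75.

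Libraries also differed in the slope of their levels on the GC content of the transcripts, from -0.13 to 0.22 on the log2 scale per 10 percentage points, with the steepest rise in R1881 replicate 6. That library held the highest R1881 values of TK1 (63.2 CPM) and DTYMK (26.0 CPM), whose transcripts have 60.3% and 57.8% GC, and the lowest R1881 values of RRM1, RRM2, RRM2B (35.1% GC), TYMS and DUT. With the GC trend removed from each library, an alternative added after seeing the data, 8 members were still lower with enzalutamide and SAMHD1 higher. Between the R1881 series, 415 genes were then called lower and 426 higher in 71 to 75, in place of 401 and 140. The same 5 members still passed as lower in 71 to 75, but the differences shrank to -0.11 for RRM2B, -0.12 for DCK and -0.12 for RRM1, while RRM2 had -0.22 and TYMS -0.22. The other members still did not pass, with -0.12 for TK1 in place of 0.02, 0.05 for DTYMK in place of 0.15, -0.11 for DUT and 0.01 for SAMHD1.

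Over the 15 libraries, deviations of RRM2 from its group means were most like those of TOP2A (Pearson r = 0.97), TYMS (0.97), TOPBP1 (0.97), KPNA3 (0.97) and CDK1 (0.96), among 12164 genes with a mean of at least 5 CPM and a median r of 0.22. Those of RRM2B were most like RPS6KB1 (0.97), CLDN12 (0.96), SUPT16H (0.96), SHOC2 (0.96) and CAMSAP2 (0.96), with a median r of 0.26. These values describe libraries that differ together in depth and base composition, and the transcripts of the genes named have 35.4% to 48.9% GC beside RRM2 and 36.6% to 44.2% beside RRM2B. The group means were those of the treatments. The difference between the R1881 series, -0.30 for RRM2 and -0.22 for RRM2B, thus remained in the deviations.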

How the data were processed

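Polyadenylated RNA of LNCaP cells was sequenced in 15 libraries (single-end reads of 50 bases). According to the labels and the methods, the authors made reads with bcl2fastq 2.17, aligned to GRCh38 by STAR and assigned reads to genes by featureCounts of Subread, whose versions, annotation and strand setting were not stated. The deposited signal per gene, called CPM (reads per 1000000) by the authors, summed to between 985580 and 1078567 per library. Each deposited value was a whole number of reads after rescaling (100% within 0.01 reads), so reads were recovered for the alternatives. The methods text gives the group sizes the other way round from the labels, and the labels were used.

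Testing covered genes whose mean CPM reached 0.5 and used limma 3.58.1 (log2(CPM + 0.5), mean-variance trend, treatment as the only term, Benjamini-Hochberg over 17046 genes, threshold 0.05) in R 4.3.3. Fold changes refer to that log2 scale. Ratios between members were compared by an exact permutation test, two-sided, with all 3003 regroupings. Alternatives were edgeR 4.0.16 and DESeq2 1.42.0 on recovered reads, other pseudocounts, scalings and filters, either R1881 series, the replicate block, removal of the GC trend (added after seeing the data) and leaving out each library. On simulated reads with 200 genes changed 2-fold between the treatment groups, limma called 100% of these and 11 unchanged genes among 17001.

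The members and gene lists were chosen with earlier results of these data known. Besides the members, the genes named are up to 2 called lower and 2 called higher genes of each list with the largest changes, 4 androgen targets and the 5 genes most like RRM2 and RRM2B. The S phase list is that of Seurat 5.3.0. Gene positions and lengths are from GENCODE v44 and promoter windows from RefSeq (GRCh38.p14). The same replicate number did not pair libraries across treatments. In all 55 pairs within a group, libraries differed by more than sampling noise. Some genes under the rule for named genes are not reported here.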

Additional observations from a re-analysis of the deposited data

Results flagged for a closer look

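Of 30 groups of values examined for a library far from the rest (15 measures in each treatment group), 1 was found, where chance gives about 1.5. R1881 + enzalutamide replicate 5 had 25416052 reads on genes, while the other 4 libraries of its group had between 21188661 and 22329140 reads, and the gap was 0.73 of the group's range (critical value 0.71). No member and no ratio between members had such a library. The calls of the 9 members in the treatment comparison did not change when this library was left out.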

How the results depend on the processing

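Of 1401 values recomputed under other settings, 1332 kept their side of the threshold or were counts that stayed within 1.5 times. Another 49 kept the direction but no longer passed, and 20 counts moved by more than 1.5 times or to 0. Among values that passed in either setting, 0 changed direction. Values that passed in neither setting could change sign, as did the change of the ratio of TYMS to TK1 (-0.13 to 0.12 on the log2 scale). RRM2B was the member whose call depended on the setting, at a log2 fold change of -0.059 with library totals set to 1000000, -0.11 in edgeR, -0.14 in DESeq2 and -0.042 against R1881 libraries 71 to 75. The other 8 members passed in every setting run, with RRM2 from -1.84 to -1.54 and SAMHD1 from 0.53 to 0.65. The lower genes of pool cleaning and breakdown numbered 5 with library totals set to 1000000, and those of nucleoside transport 1 with TMM factors, library totals set to 1000000, edgeR and DESeq2. The ratio of TK1 to DCK changed by -0.25 against libraries 51 to 55 and no longer passed. For ratios, passing here refers to an unadjusted exact permutation p under 0.05. Between the R1881 series, 841 genes were called with the GC trend removed (415 lower and 426 higher). The cause was not tested in any of these cases.

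With single libraries left out, RRM2B ranged from -0.18 to -0.11 and the ratio of TK1 to DCK from -0.47 to -0.27. Between the R1881 series the number of genes called ranged from 55 to 964 and that of members from 0 to 5. The series differences ranged from -0.22 to -0.17 for RRM1, -0.34 to -0.27 for RRM2, -0.25 to -0.19 for RRM2B, -0.25 to -0.22 for TYMS and -0.26 to -0.20 for DCK.

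With the replicate number as a block, 10043 genes were called in place of 10660, 8 members were lower and 1 higher, and 1 nucleotide kinase and 1 gene of pool cleaning were higher, since TK2 (0.07) and UPP1 (0.33) no longer passed. Libraries with the same number did not deviate together (r from -0.11 to 0.13), and 1 of 5 enzalutamide libraries correlated best with the R1881 library of its own number.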
